A study of Homo sapiens with 64 samples.

Results

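The TCA cycle, pyruvate and anaplerosis enzymes are 32 genes, taken from the 60649 genes of the count table by their symbols. They comprise 7 genes from citrate synthase to the isocitrate dehydrogenases, 9 from the oxoglutarate dehydrogenase complex to the malate dehydrogenases, 4 subunits of the pyruvate dehydrogenase complex, 4 pyruvate dehydrogenase kinases, 2 subunits of the mitochondrial pyruvate carrier and 6 enzymes that feed or drain the cycle. The study sequenced total RNA of 4 human cell lines established from non-small cell lung tumours (H460, H838, H1703, H1755) and kept in RPMI medium with 10% serum. From the day after plating, each line received for 24 hours the solvent DMSO (vehicle), MYCi975 at 5 µM (which inhibits MYC, a growth-promoting transcription factor), TMP195 at 25 µM (which inhibits the class IIa histone deacetylases) or both compounds, called the combination. Each of the 16 groups held 4 replicates, and the 64 libraries held 17352066 to 34236552 counts each. The labels do not say that replicates came from separate cultures, so the p-values measure the spread between these libraries, which may be technical.

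In the TCA cycle, acetyl groups enter through citrate synthase and are oxidised stepwise back to oxaloacetate. Pyruvate reaches the mitochondrion through a carrier built from MPC1 and MPC2 and is turned into acetyl-CoA by the pyruvate dehydrogenase complex, which the PDK kinases switch off by phosphorylation. Anaplerosis refills the cycle, for instance by pyruvate carboxylase or from glutamate, and cataplerosis drains it, as when PCK2 makes phosphoenolpyruvate or the malic enzymes make pyruvate. Lung tumours are known for running pyruvate oxidation and pyruvate carboxylation together with glycolysis, and MYC is known as a driver of glutamine use.

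All 32 members passed the filter on low counts in every line. Levels are CPM, the counts scaled to library size with TMM factors over all libraries. A member was called when its adjusted p in edgeR's quasi-likelihood test was below 0.05 over all genes tested in that line. This test gave every adjusted p for which no other tool is stated, and each log2 fold change has its standard error (SE).

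The labels name no library batch, so the libraries were sorted into batches here. The sets were the libraries with EEF1G counts, those of replicate 4, those with "rep" in the column name, and the rest. The rest is called the first batch. EEF1G had 639 to 759 CPM in 7 H460 libraries and 0 in the other 57. These were the first and second replicates of the 3 other treatments and combination replicate 1. For the members, the mean in these 7 libraries was between 0.690 and 1.16 times that in the other 9 H460 libraries. Those other libraries held every combination replicate but replicate 1, so the range does not separate treatment from batch. The low ratios included PCK2 (0.691) and IDH1 (0.801), which rose with the combination in H460. Mitochondrial ribosomal RNA took 5.12% to 10.7% of counts in the 16 libraries of replicate 4 and the 5 with "rep" in the column name. In the 36 libraries of the first batch it took 10.1% to 19.1%, so the ranges overlapped slightly. For H838, TMP195 replicate 1 was placed by its title, since 2 of its label fields name another line. As a range over the 4 group means of each line, the summed level of 6 epithelial markers was 2488 to 3141 CPM in H460, 808 to 1173 in H838, 1038 to 1163 in H1755 and 45.7 to 52.1 in H1703. Within that list EPCAM and CDH1 stayed below 1 CPM in H460 and H1703, in every library, while KRT8 held 1311 to 2043 CPM in the H460 libraries. The 4 mesenchymal markers summed to 584 CPM or more in every group, with VIM at 401 CPM or more in every library. The 4 fibroblast markers summed to 848 to 966 CPM in H1703, with PDGFRA at 736 to 1022 CPM in its libraries, and to at most 15.6 CPM in the other lines, and COL1A2 and DCN stayed near 0 everywhere. The 3 leukocyte markers summed to at most 2.23 CPM, with PTPRC near 0, and the 3 endothelial markers to at most 4.03 CPM.

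Before treatment, the members' levels set the lines apart. In vehicle libraries, each line set against the mean of the others, 24 of 32 members were called for H460, 22 for H838, 23 for H1703 and 22 for H1755. The share of all genes called was 62.4% for H460, 59.6% for H838, 60.8% for H1703 and 57.1% for H1755, so the members' shares were near or above a high background. In H460, 17 were higher (all genes 32.5%) and 7 lower (29.9%), and in H1703, 5 were higher (31.7%) and 18 lower (29.1%). The median member varied 2.55-fold between its highest and lowest line, with 8 members under 2-fold and 5 at 10-fold or more. In bulk RNA, fewer cells with a transcript and less of it per cell cannot be told apart.

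**Figure D1:**
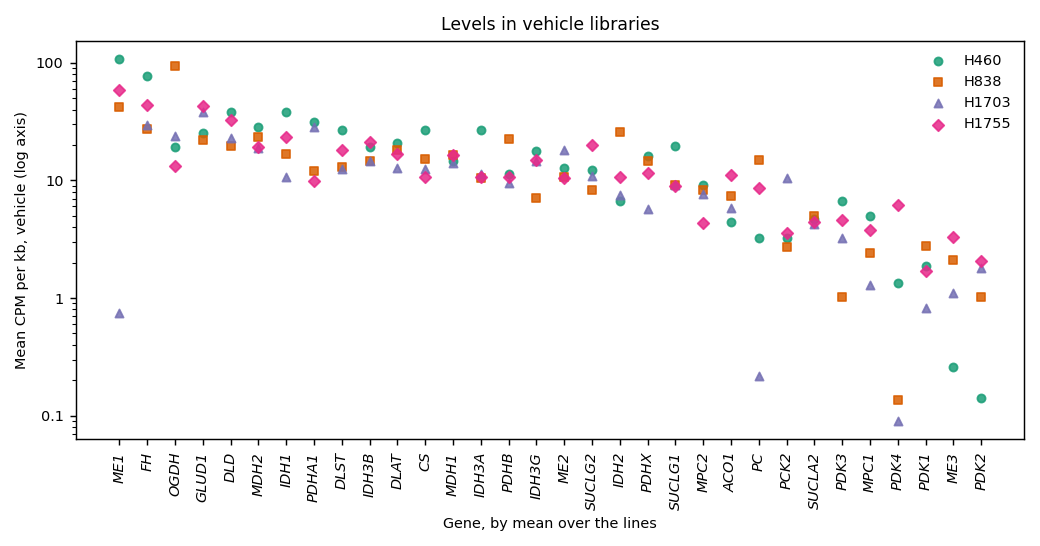
Mean level of each member in the 4 vehicle libraries of each line, in CPM per kilobase of exon on a log axis, with genes ordered by their mean over the lines. ME1 runs from 0.739 CPM per kb in H1703 to 108 in H460, while SUCLA2 and MDH1 have nearly the same level in all 4 lines.

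Per exon length, ME1, the cytosolic malic enzyme that makes NADPH, had the highest mean over the lines (52.2 CPM per kb), followed by FH, fumarase (44.3), and OGDH, the catalytic E1 subunit of oxoglutarate dehydrogenase (37.6). PDK2 (1.25), ME3 (1.69), PDK1 (1.79) and PDK4 (1.94 CPM per kb) were the lowest. The length used joins all annotated exons of a gene, 14883 bases for PDK1. Without division by length, the vehicle means of PDK1 were 12.3 to 41.6 CPM, above those of MPC1 (1.99 to 7.67 CPM). ME1 stood at 2.84, 1.99, 2.83 and 2.31 CPM in the H1703 vehicle libraries, whereas its means were 363 ± 101 CPM in H460, 142 ± 27.9 in H838 and 196 ± 11.5 in H1755 (SD, n = 4). The difference of H1703 from the mean of the other lines was -6.43 on the log2 scale (SE 0.20, adjusted p = 7.06e-14), and the ranges did not overlap. H1703 also had the lowest PC, pyruvate carboxylase, which makes oxaloacetate from pyruvate.

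PC was at 1.28 ± 0.187 CPM in H1703 vehicle libraries, against 87.5 ± 16.5 in H838, 50.8 ± 14.3 in H1755 and 19.0 ± 2.27 in H460 (SD, n = 4). PDK4, a kinase known to be induced by fasting and fatty acids, was at 28.0 ± 3.75 CPM in H1755 and 6.03 ± 1.66 in H460, but at 0.613 ± 0.374 in H838 and 0.407 ± 0.264 in H1703. OGDH was at 488 ± 25.5 CPM in H838, where the other lines lay between 69.4 and 124 on average. The remaining members at 10-fold or more were PDK2 (0.768 ± 0.269 CPM in H460, 11.3 ± 3.16 in H1755) and ME3, a mitochondrial malic enzyme (0.997 ± 0.497 in H460, 12.7 ± 0.859 in H1755). At the other end, SUCLA2, the ATP-forming subunit of succinyl-CoA ligase, and MDH1, cytosolic malate dehydrogenase, were called in none of the 4 lines. Over the 4 lines the lowest adjusted p was 0.0566 for SUCLA2 and 0.0973 for MDH1.

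Treatment moved fewer members, and a smaller share of all genes, than set the lines apart. With MYCi975, H460 had 1 member called (1.09% of all genes tested), H838 had 0 (0%), H1703 had 2 (10.2%) and H1755 had 0 (0.0643%). All 3 calls were rises, PCK2 in H460 and H1703 and MPC1 in H1703, where 1.01% and 6.04% of all genes were higher. At an unadjusted p below 0.05 there were 2 members in H838 (1541 of 20624 genes) and 3 in H1755 (947 of 20218). DESeq2 called 0 members in both lines. With TMP195, H460 had 0 (1.13%), H838 had 1 (0.572%), H1703 had 5 (9.65%) and H1755 had 0 (0.43%). The H838 call was a rise (0.417% of genes higher), and in H1703 2 rose (6.07%) and 3 fell (3.57%). In H460 7 members (2072 of 21226 genes) and in H1755 4 (1141 of 20218) passed an unadjusted 0.05. DESeq2 called 1 member in each of these lines (511 and 191 of all genes).

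With the combination, H460 had 6 members called (15.7% of all genes tested), H838 had 1 (3.24%), H1703 had 18 (38.3%) and H1755 had 1 (1.69%). Of the 6 in H460, 4 rose (9.72% of genes higher) and 2 fell (5.98% lower). In H838 (2.29% higher) and H1755 (1.23% higher) PCK2 rose. In H1703, 5 rose against a background of 19.9% higher, and 13 fell against 18.5% lower. There the median log2 fold change of the members was -0.20, while that of all genes was 0.02. In H460 the medians were -0.01 and -0.03, in H838 -0.06 and -0.00286, and in H1755 -0.04 and 0.000737. Counting each treatment against vehicle, 19 of the 32 members were called at least once. Of these, 18 were called with the combination in H1703, where 38.3% of all genes were. The share of all genes called at least once was not counted. The 13 members never called were IDH2, IDH3G, DLST, SUCLG1, MDH2, PDHA1, PDHB, PDHX, PDK3, PDK4, ME1, ME2 and ME3.

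Same-numbered replicates moved together in some comparisons, and a model with the replicate number as a block then called more members. With MYCi975 it called 5 in H460 (6.52% of all genes), 10 in H1703 (25.6%) and 8 in H1755 (9.23%). With TMP195, H460 then had 5 (5.15%), H838 had 2 (7.46%), H1703 had 10 (23.8%) and H1755 had 9 (10.5%). With the combination, H838 had 10 (14.9%) and H1755 had 15 (24.2%). The labels name no shared day or culture behind the numbers, and a shared library batch and a pairing cannot be told apart.

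**Figure D2:**
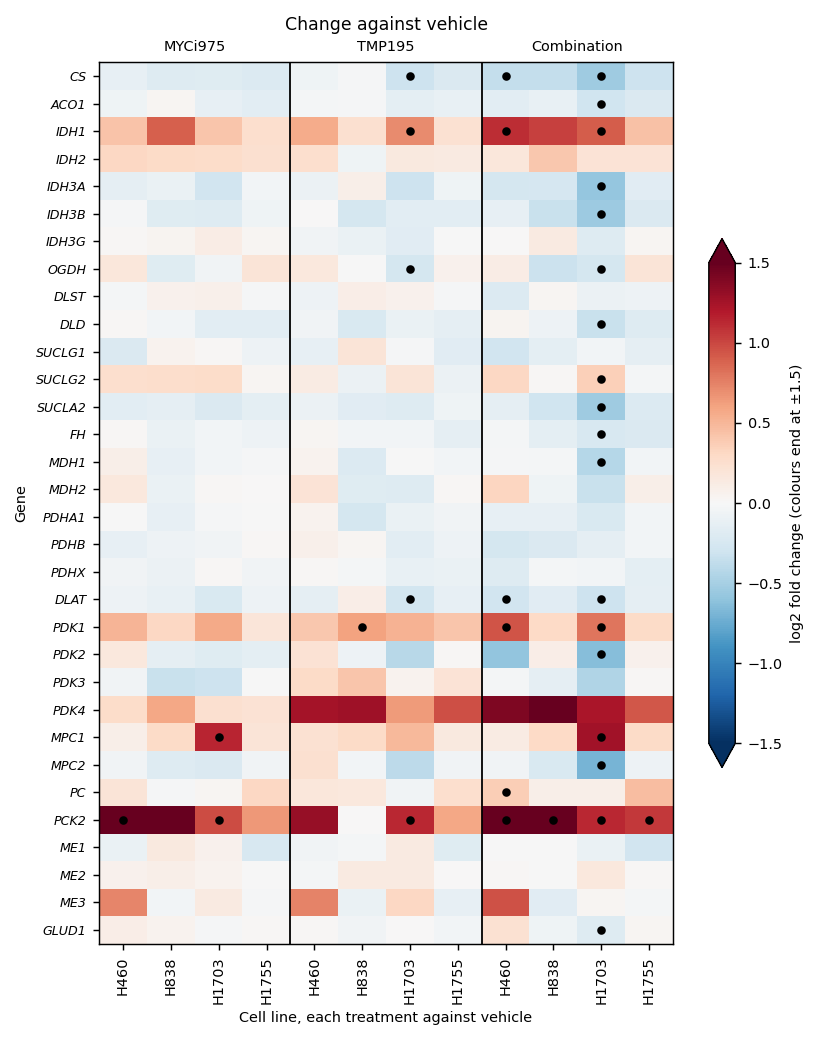
Log2 fold change of each of the 32 members (rows) against vehicle in the 4 lines for MYCi975, TMP195 and the combination (columns), with a black dot where the adjusted p was below 0.05. PCK2 is positive in all 12 columns and dotted in all 4 for the combination, while most dots for falls stand in the H1703 column of the combination.

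PCK2, the mitochondrial phosphoenolpyruvate carboxykinase, rose with the combination in all 4 lines and was the member called most often. It is known as a gene that the stress-induced factor ATF4 turns on when amino acids or glucose run short. In H460 its vehicle libraries held 13.6, 14.1, 13.4 and 12.7 CPM, and its combination libraries 93.5, 94.5, 74.0 and 112 CPM. All combination libraries lay above all vehicle libraries, a log2 fold change of 2.80 (SE 0.40, adjusted p = 0.000386). In H838 vehicle libraries held 12.2, 11.3, 11.001 and 11.4 CPM and combination libraries 44.7, 27.0, 44.8 and 144 CPM, again without overlap. Replicate 4 stood far above its group, and the log2 fold change was 2.52 (SE 0.58, adjusted p = 0.0253). The H838 call was lost without combination replicate 4 (1.76) or without any 1 of the vehicle libraries, with an adjusted p of at most 0.0817. In the first batch alone the H838 fold change was 1.76 with an adjusted p of 0.000106.

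In H1703 PCK2 started higher, at 43.5, 43.0, 42.5 and 46.2 CPM in vehicle, and reached 98.4, 95.7, 102 and 91.3 CPM with the combination (log2 fold change 1.13, SE 0.07, adjusted p = 3.45e-08). In H1755 it went from 17.3, 15.2, 15.7 and 11.8 CPM to 29.9, 30.4, 28.8 and 36.1 CPM (1.06, SE 0.20, adjusted p = 0.0129). The ranges did not overlap in either line. These calls and that in H460 held when any 1 library was left out.

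The single agents moved PCK2 unevenly. MYCi975 gave 48.6, 46.6, 19.5 and 97.8 CPM in H460, all above vehicle but widely spread, with a log2 fold change of 1.98 (SE 0.38, adjusted p = 0.0285). That call was lost without MYCi975 replicate 1 or 4 or without any 1 vehicle library, when the fold change lay between 1.52 and 2.25 over all libraries left out and the adjusted p reached 0.104. The H460 libraries of the first batch alone, with 1 each for vehicle and MYCi975, gave 0.54. In H838 MYCi975 gave 32.6, 16.7, 21.2 and 129 CPM, above all vehicle libraries yet uncalled (2.13, SE 0.57, adjusted p = 0.383). In H1703 it gave 82.1, 86.7, 83.8 and 94.0 CPM, a log2 fold change of 0.98 (SE 0.07, adjusted p = 3.59e-07). In H1755 the 4 values were 19.7, 18.2, 18.6 and 37.3 CPM, which was not called (0.65, adjusted p = 0.570), although the block called it (0.64, adjusted p = 0.00594).

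With TMP195, PCK2 rose in H1703, where its libraries held 95.9, 93.7, 99.5 and 95.3 CPM (log2 fold change 1.13, SE 0.07, adjusted p = 3.18e-08). In H838 it stayed within reach of vehicle, at 12.2, 9.83, 9.06 and 14.9 CPM (0.01, SE 0.57, adjusted p = 0.997). In H460 it stood at 28.0, 25.9, 23.2 and 55.6 CPM and in H1755 at 23.4, 23.0, 22.3 and 20.8 CPM, both above all vehicle libraries. Neither was called (1.31 and 0.58, adjusted p = 0.151 and 0.487), and both were with the block (1.19 and 0.59, adjusted p = 0.0329 and 0.00979). In every treated group of MYCi975, PCK2 was highest in replicate 4, whose libraries had the lower share of mitochondrial ribosomal RNA; the part of this batch difference in the response was not tested.

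**Figure D3:**
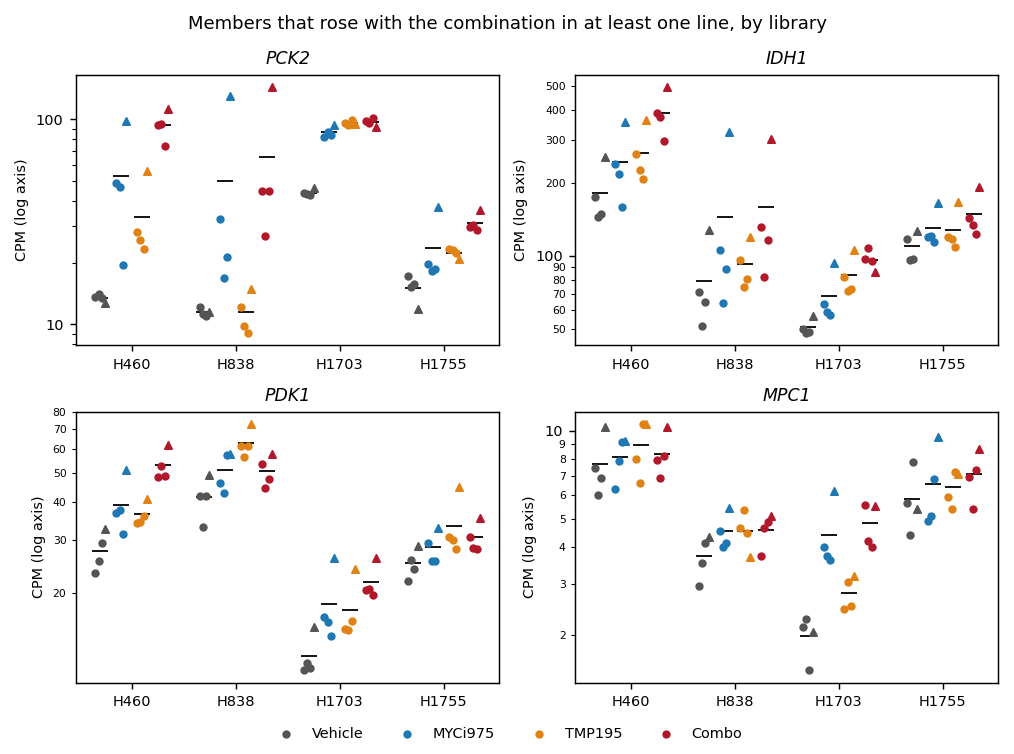
CPM of PCK2, IDH1, PDK1 and MPC1 in each library on log axes, by line and treatment; circles are replicates 1 to 3, triangles replicate 4 and dashes group means. PCK2 with the combination lies above all vehicle libraries in each line, and replicate 4 is the highest PCK2 value in 3 of the 4 combination groups.

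PCK2 lies on chromosome 14 at 24094053 to 24110598 on the plus strand (GRCh38, GENCODE 29). The 250 bases before its RefSeq start site (GRCh38.p14, chr14:24094061-24094310, plus strand) are shown because PCK2 was called in every line. Beside them stand those of GOT1 (chr10:99430625-99430874, minus strand), cytosolic aspartate aminotransferase. Each stretch lies inside the GENCODE 29 span of its gene (for GOT1 99396870 to 99431569). Bases before the GENCODE start of these genes were therefore not searched. GOT1, a neighbouring pathway gene that rose in 2 lines, is shown as an example with a motif match, not as a typical gene. Capitals in the second mark a match to the CARE motif, TGATGNAAN, which ATF4 binds together with C/EBP factors.
PCK2: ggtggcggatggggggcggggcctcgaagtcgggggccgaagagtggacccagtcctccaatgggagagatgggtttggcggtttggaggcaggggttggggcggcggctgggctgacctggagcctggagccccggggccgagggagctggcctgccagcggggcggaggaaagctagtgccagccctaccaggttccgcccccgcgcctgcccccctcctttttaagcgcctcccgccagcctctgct
GOT1: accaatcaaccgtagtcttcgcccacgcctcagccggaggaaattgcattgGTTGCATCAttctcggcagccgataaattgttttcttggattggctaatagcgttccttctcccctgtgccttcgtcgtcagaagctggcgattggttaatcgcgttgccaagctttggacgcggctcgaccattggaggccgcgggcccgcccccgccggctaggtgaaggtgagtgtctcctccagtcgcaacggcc
Both strands of the 250 bases before and 50 after each start site were searched. Of 32 members, 31 had an entry, with 44 promoters, and CARE was found in 0 of them and in 3.61% of all 35116 promoters. Among the neighbouring genes it was found for GOT1 and SLC25A11, the oxoglutarate carrier. No match was found for GPT2 or PDP1, described below, which rose with the combination in more lines than GOT1. The share of neighbouring promoters with a match was not counted. The MYC-binding E-box CACGTG was found in 4 of the 44 (ME3, with 2 start sites, PDHB and PDK2) and in 7.26% of all promoters. A match is only a stretch of letters, and none in these windows leaves other sites unsearched.

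Among the other enzymes that feed or drain the cycle, PC rose with the combination in H460, from 15.9, 21.2, 19.2 and 19.9 CPM to 22.9, 23.9, 26.0 and 25.4 CPM. The groups did not overlap (log2 fold change 0.37, SE 0.11, adjusted p = 0.0355). The call was lost without any 1 combination library or vehicle replicate 1, 3 or 4, with an adjusted p of at most 0.108. In H1755 PC went from 62.3, 59.8, 50.3 and 30.8 CPM to 83.4, 78.5, 75.4 and 42.8 CPM with the combination. Replicate 4 was lowest in both groups; the gene was not called (0.46, SE 0.28, adjusted p = 0.582) and was with the block (0.46, adjusted p = 2.78e-07). Reads of PC may be shared with LRFN4, whose exons overlap 10.5% of its exonic length on the other strand.

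The malic enzymes were called with no treatment in any line. For ME2, a mitochondrial malic enzyme, the combination gave log2 fold changes between -0.01 (H838) and 0.16 (H1703). ME1 in H1755 went from 195, 186, 212 and 192 CPM to 163, 155, 173 and 150 CPM, with no overlap (-0.29, SE 0.08, adjusted p = 0.0899), and was called with the block (-0.29, adjusted p = 3.58e-05). ME3 in H460 went from 0.491, 0.815, 1.01 and 1.67 CPM to 1.59, 1.62, 2.44 and 2.09 CPM, which overlapped (0.96, SE 0.35, adjusted p = 0.0871). GLUD1, glutamate dehydrogenase, which makes oxoglutarate from glutamate, fell with the combination in H1703 by 0.19 on the log2 scale (SE 0.07, adjusted p = 0.0484). Of the 16 H1703 libraries, that call held only when MYCi975 replicate 4 or combination replicate 1 was left out (adjusted p up to 0.171 otherwise), and GLUD1 may share reads with its near copy GLUD2.

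**Figure D4:**
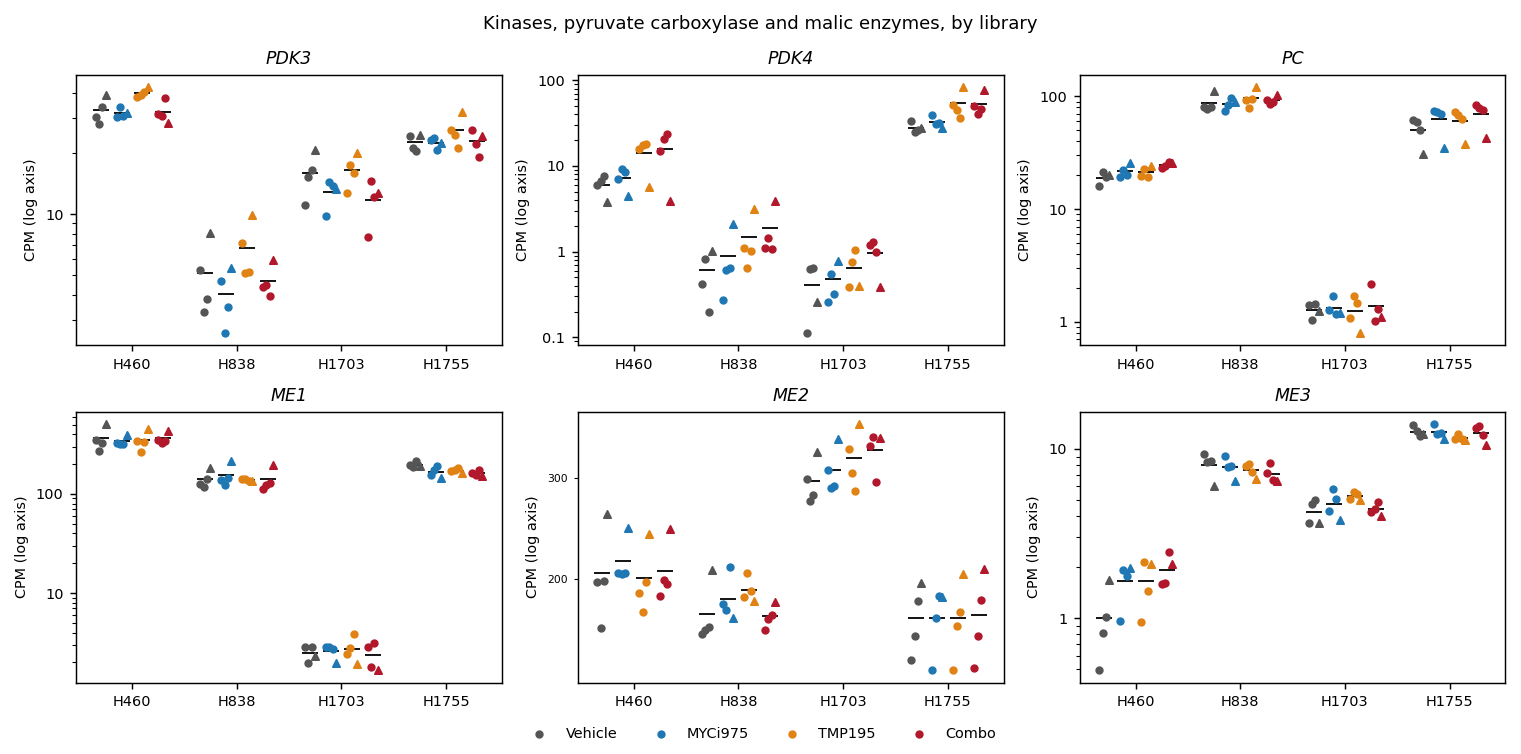
CPM of PDK3, PDK4, PC and the 3 malic enzymes in each library on log axes, by line and treatment, with symbols as in the plot of PCK2 and IDH1. ME1 and PC are at or below 3.85 CPM in every H1703 library, and PDK4 is highest in H1755.

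Among the genes from citrate synthase to the isocitrate dehydrogenases, IDH1 rose while CS, ACO1, IDH3A and IDH3B fell with the combination in H1703. IDH1 is the cytosolic isocitrate dehydrogenase, which makes NADPH. In H460 it went from 175, 145, 149 and 255 CPM to 390, 375, 296 and 498 CPM with the combination. The groups did not overlap (log2 fold change 1.11, SE 0.26, adjusted p = 0.00923). In H1703 it went from 50.1, 48.1, 48.7 and 56.6 CPM to 97.0, 108, 95.5 and 86.1 CPM (0.91, SE 0.14, adjusted p = 9.89e-05), again apart. Both calls held without any 1 library.

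In H838 IDH1 went from 71.0, 51.3, 64.9 and 128 CPM to 131, 82.1, 117 and 305 CPM with the combination. The groups overlapped, replicate 4 was highest in both, and the gene was not called (log2 fold change 1.02, SE 0.46, adjusted p = 0.243), though it was with the block (0.92, adjusted p = 0.00148). In H1755 it went from 118, 96.4, 97.1 and 127 CPM to 144, 135, 123 and 193 CPM (0.44, SE 0.18, adjusted p = 0.304), and was called with the block (0.43, adjusted p = 4.98e-07). With TMP195 it rose in H1703 to 81.9, 71.9, 73.5 and 106 CPM, all above vehicle (0.71, SE 0.14, adjusted p = 0.00447). IDH1 shares little sequence with its antisense gene IDH1-AS1, whose exons overlap 1.99% of its exonic length. IDH2, its mitochondrial counterpart, was not called with any treatment in any line (combination against vehicle 0.17 to 0.40).

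CS, citrate synthase, which joins acetyl-CoA to oxaloacetate, fell with the combination in H460 and H1703. In H460 it went from 175, 184, 167 and 160 CPM to 144, 128, 131 and 131 CPM, without overlap (log2 fold change -0.36, SE 0.09, adjusted p = 0.0151). The first and second of these vehicle libraries and the first combination library were among those with EEF1G counts. The exons of AC073896.1 on the same strand overlap 3.44% of the exonic length of CS, and the part of this was not tested. In H1703 CS went from 87.6, 78.8, 75.5 and 79.0 CPM to 56.1, 56.9, 59.1 and 51.8 CPM (-0.54, SE 0.08, adjusted p = 7.09e-05). Both calls held without any 1 library. In H838 CS went from 99.7, 87.1, 103 and 96.7 CPM to 74.4, 77.2, 79.3 and 69.0 CPM, also apart but uncalled (-0.36, SE 0.11, adjusted p = 0.0722; with the block -0.36, adjusted p = 0.00723).

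In H1755 CS values overlapped, 62.5, 70.5, 77.8 and 61.8 CPM against 58.4, 57.8, 62.6 and 42.5 CPM (log2 fold change -0.30, SE 0.16, adjusted p = 0.474; with the block -0.31, adjusted p = 0.000448). With TMP195, CS fell in H1703 to 66.2, 66.5, 65.0 and 62.1 CPM, below every vehicle library (-0.31, SE 0.08, adjusted p = 0.0236). That call was lost without TMP195 replicate 1, 3 or 4 or vehicle replicate 1 or 2, with an adjusted p of at most 0.0891.

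IDH3A, the catalytic subunit of the NAD-dependent isocitrate dehydrogenase, fell in H1703 from 75.1, 73.9, 80.5 and 79.3 CPM to 49.2, 58.9, 55.6 and 46.2 CPM with the combination, without overlap. Its log2 fold change was -0.57 (SE 0.10, adjusted p = 0.000228), and the call held without any 1 library. The exons of ACSBG1 on the other strand overlap 38.2% of its exonic length, and the strand setting of the counting is not given in the sources used here. IDH3B, its partner subunit, fell by 0.55 in H1703 (SE 0.19, adjusted p = 0.0280), and ACO1, the cytosolic aconitase, by 0.30 (SE 0.09, adjusted p = 0.0130). The IDH3B call was lost without combination replicate 2 or 4 or vehicle replicate 1, 2 or 3 (adjusted p up to 0.0984), and the ACO1 call without combination replicate 4 (adjusted p = 0.0548). IDH3G, the third subunit, was not called (-0.20, adjusted p = 0.245).

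**Figure D5:**
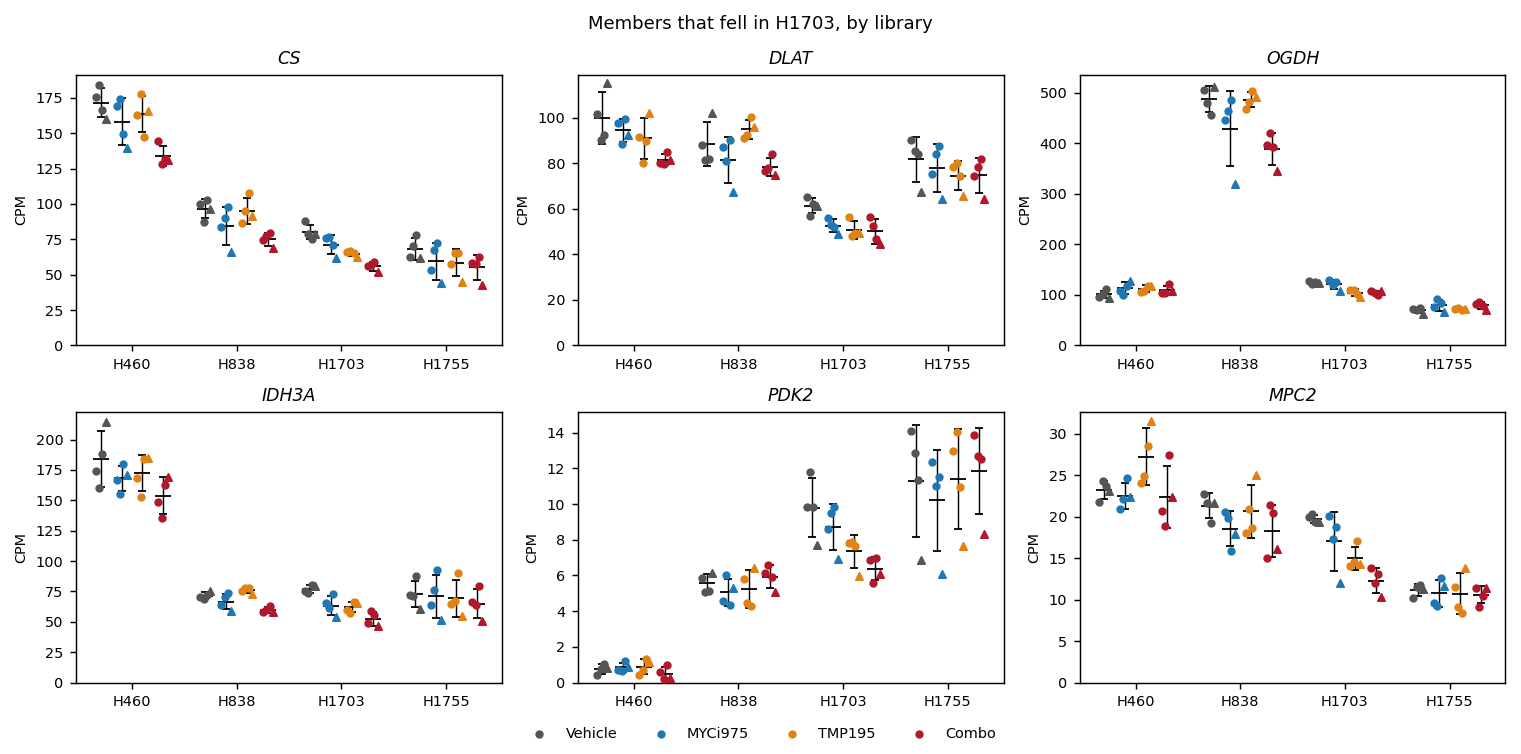
CPM of CS, DLAT, OGDH, IDH3A, PDK2 and MPC2 in each library from 0, by line and treatment; circles are replicates 1 to 3, triangles replicate 4, dashes group means and bars 1 SD. In H1703 the combination libraries of CS, OGDH, IDH3A, PDK2 and MPC2 lie below every vehicle library.

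Of the 9 genes from oxoglutarate to oxaloacetate, 5 fell and 1 rose with the combination in H1703, where 18.5% of all genes fell and 19.9% rose. In H460 (15.7% of genes called), H838 (3.24%) and H1755 (1.69%) 0 of the 9 were called by edgeR or by DESeq2. At an unadjusted p below 0.05 H460 had 1 (5882 of 21226 genes), H838 had 2 (3782 of 20624) and H1755 had 0 (2446 of 20218). OGDH in H1703 went from 128, 121, 125 and 124 CPM to 107, 103, 100.5 and 108 CPM, without overlap (log2 fold change -0.27, SE 0.07, adjusted p = 0.00741). TMP195 alone gave 110, 109, 102 and 95.04 CPM there (-0.26, SE 0.07, adjusted p = 0.0309). That call was lost without TMP195 replicate 3 or 4 or any 1 vehicle library, with an adjusted p of at most 0.107. In H838, where OGDH was most abundant, it went from 506, 479, 456 and 511 CPM to 397, 420, 392 and 345 CPM with the combination. The groups were apart but the gene was not called (-0.33, SE 0.11, adjusted p = 0.102), and it was with the block (-0.33, adjusted p = 0.0217). In H1755 it went the other way, from 72.2, 70.2, 73.2 and 61.8 CPM to 81.6, 86.3, 78.2 and 70.8 CPM, with overlap (0.19, SE 0.09, adjusted p = 0.418; with the block 0.19, adjusted p = 0.0147).

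SUCLA2 fell with the combination in H1703 by 0.53 on the log2 scale (SE 0.13, adjusted p = 0.00391), while SUCLG2, the GTP-forming subunit of the same ligase, rose by 0.36 (SE 0.09, adjusted p = 0.00341). Their shared partner SUCLG1 was not called (-0.04, adjusted p = 0.756). DLD, the E3 subunit common to the oxoglutarate and pyruvate dehydrogenase complexes, fell by 0.33 (SE 0.11, adjusted p = 0.0252), FH by 0.23 (SE 0.08, adjusted p = 0.0278) and MDH1 by 0.43 (SE 0.16, adjusted p = 0.0387). The calls of SUCLA2 and SUCLG2 held without any 1 library. Those of DLD, FH and MDH1 were each lost without combination replicate 4, vehicle replicate 1 or vehicle replicate 3, with adjusted p up to 0.0976, 0.0972 and 0.138. Those of DLD and MDH1 were also lost without vehicle replicate 2, and that of MDH1 without combination replicate 2.

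In the pyruvate dehydrogenase complex, DLAT, the E2 subunit that carries the acetyl group, fell with the combination in H460 and H1703. In H460 it went from 102, 90.2, 92.3 and 115 CPM to 80.2, 79.7, 84.9 and 81.3 CPM (log2 fold change -0.29, SE 0.08, adjusted p = 0.0211). In H1703 it went from 65.0, 57.0, 62.0 and 61.4 CPM to 56.4, 52.5, 46.8 and 44.5 CPM (-0.31, SE 0.08, adjusted p = 0.00738). In both lines every combination library was below every vehicle library. The H460 call was lost without combination replicate 1 or 2 or vehicle replicate 1 or 4, with an adjusted p of at most 0.0591, and in the first batch alone, with 1 vehicle library, the H460 value was -0.16. With TMP195 in H1703, DLAT held 56.3, 47.8, 49.3 and 49.1 CPM (-0.28, SE 0.08, adjusted p = 0.0456). Of the 16 H1703 libraries, that call held only without MYCi975 replicate 4, TMP195 replicate 1 or combination replicate 1 or 4 (adjusted p up to 0.127 otherwise). PDHA1 and PDHB, the E1 subunits, and PDHX, which anchors DLD, were not called in any line, with combination values from -0.27 to -0.03.

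Among the kinases that switch this complex off, PDK1, known as a target of hypoxia signalling, rose with the combination in H460 and H1703. In H460 it went from 23.3, 25.4, 29.2 and 32.5 CPM to 48.5, 52.8, 49.0 and 62.2 CPM (log2 fold change 0.95, SE 0.14, adjusted p = 0.000447). In H1703 it went from 11.02, 11.6, 11.2 and 15.3 CPM to 20.4, 20.6, 19.6 and 26.2 CPM (0.80, SE 0.19, adjusted p = 0.00269). The groups were apart in both lines and the calls held without any 1 library.

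In H838 PDK1 rose with TMP195 alone, from 42.1, 33.1, 42.0 and 49.2 CPM to 61.4, 56.7, 61.8 and 72.9 CPM, without overlap (log2 fold change 0.61, SE 0.13, adjusted p = 0.0469). Replicates 1 to 3 of that TMP195 group were put in another library batch than the vehicle replicates 1 to 3. This rests on the style of their column names, since no label names a batch. With the batch as a term the value was 0.45 with an adjusted p of 0.128, and the call held only without vehicle replicate 4, MYCi975 replicate 2 or 4 or combination replicate 4 (adjusted p up to 0.172 otherwise). In H1755 PDK1 held 30.7, 29.9, 27.9 and 44.9 CPM with TMP195 against 21.9, 25.7, 23.9 and 28.5 CPM (0.42, SE 0.16, adjusted p = 0.604), and was called with the block (0.41, adjusted p = 0.000399).

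PDK2 fell with the combination in H1703, from 9.82, 11.8, 9.86 and 7.73 CPM to 6.85, 5.60, 6.97 and 6.08 CPM, without overlap (log2 fold change -0.64, SE 0.15, adjusted p = 0.00278). That call held without any 1 library. The exons of SAMD14 on the other strand overlap 38.6% of the exonic length of PDK2. PDK3 was not called in any line, with combination values from -0.45 in H1703 to 0.02 in H1755. In H1703 it held 11.1, 15.3, 16.6 and 20.7 CPM in vehicle and 7.69, 14.6, 12.1 and 12.7 CPM with the combination (adjusted p = 0.0871), and the groups overlapped.

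PDK4 was above vehicle on average in all 4 lines with every treatment, yet was called in none. The log2 fold changes were 0.22 to 0.59 with MYCi975, 0.63 to 1.28 with TMP195 and 0.93 to 1.60 with the combination. In H460 it held 5.94, 6.70, 7.69 and 3.78 CPM in vehicle, 15.9, 17.5, 18.03 and 5.73 CPM with TMP195 and 15.1, 20.9, 23.8 and 3.9001 CPM with the combination. Replicate 4 stayed within the vehicle range in both treated groups. The log2 fold changes were 1.25 (SE 0.48, adjusted p = 0.354) and 1.40 (SE 0.48, adjusted p = 0.0663).

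In H1755 PDK4 went from 33.3, 24.7, 26.3 and 27.6 CPM to 51.4, 44.8, 36.4 and 83.9 CPM with TMP195 and 50.8, 40.7, 46.2 and 76.1 CPM with the combination. Both groups lay above vehicle (log2 fold changes 0.96 and 0.93, SE 0.24 each, adjusted p = 0.141 and 0.0666). With the block, both were called (0.93 and 0.91, adjusted p = 2.62e-05 and 1.31e-05), as were TMP195 in H460 (1.17, adjusted p = 0.0130), TMP195 in H838 (1.27, adjusted p = 0.0279) and the combination in H838 (1.59, adjusted p = 0.00315). For TMP195 in H838 most same-numbered libraries were put in different batches, and a batch term called 0 members there (66 of all genes). In H838 and H1703 PDK4 was at or below 3.93 and 1.29 CPM in every library, so that few reads stood behind those values.

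The 2 subunits of the mitochondrial pyruvate carrier moved in opposite directions in H1703. MPC1 went from 2.13, 2.28, 1.52 and 2.05 CPM in vehicle to 4.01, 3.73, 3.62 and 6.22 CPM with MYCi975 (log2 fold change 1.14, SE 0.20, adjusted p = 0.00163). With the combination it reached 5.58, 4.19, 4.004 and 5.52 CPM (1.26, SE 0.20, adjusted p = 0.000101). Both groups lay above vehicle and both calls held without any 1 library.

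TMP195 gave MPC1 values of 2.45, 3.04, 2.52 and 3.18 CPM in H1703, above vehicle but not called (log2 fold change 0.49, SE 0.20, adjusted p = 0.145), and called with the block (0.48, adjusted p = 0.0427). MPC2 went from 19.9, 20.3, 19.4 and 19.3 CPM to 13.8, 11.97, 13.1 and 10.3 CPM with the combination, a log2 fold change of -0.70 (SE 0.14, adjusted p = 0.000680). The call held without any 1 library. The exons of DCAF6 on the other strand overlap 22.5% of the exonic length of MPC2. In the other lines neither subunit was called with any treatment, and the combination values of MPC1 lay between 0.12 and 0.30.

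Setting the combination against each single agent asked whether the second compound moved the members further. Against MYCi975, 1 gene-line pair was called, CS in H1703 (log2 fold change -0.36, SE 0.08, adjusted p = 0.0364), where 1.7% of all genes were called; in H460, H838 and H1755 the background was 1.06%, 0.0242% and 0.0544%. The call held only without vehicle replicate 1 or 4, MYCi975 replicate 4 or TMP195 replicate 4 (adjusted p up to 0.165 otherwise). In H1703, 13 members passed an unadjusted 0.05 (4353 of 20827 genes), and DESeq2 called 5 (1324 of all genes). Without H1703 MYCi975 replicate 4 alone, 13 pairs were called. How many of all genes were called then is not given here. In H460, H838 and H1755 0 members were called by edgeR or DESeq2. At an unadjusted p below 0.05 there were 6 (2657 of 21226 genes), 0 (1007 of 20624) and 1 (604 of 20218). In H1755, where the numbers paired the libraries, the block called 2 (3.19% of all genes), IDH1 (0.18, adjusted p = 0.0458) and PDK4 (0.68, adjusted p = 0.00287). Against TMP195, 3 pairs were called, PCK2 (1.49, SE 0.38, adjusted p = 0.0449) and PDK1 (0.54, SE 0.14, adjusted p = 0.0449) in H460 and MPC1 in H1703 (0.77, SE 0.19, adjusted p = 0.0327). The share of all genes called there was 3.91% for H460, 0.0436% for H838, 4.87% for H1703 and 0% for H1755. The PCK2 call held only without MYCi975 replicate 3 or 4, TMP195 replicate 4 or combination replicate 3 (adjusted p up to 0.129 otherwise). That of PDK1 held only without vehicle replicate 4 or MYCi975 replicate 3 or 4 (up to 0.131). That of MPC1 was lost without combination replicate 1 or 4 or TMP195 replicate 1, 2 or 3 (up to 0.124). In H838 and H1755 0 members were called. At an unadjusted p below 0.05 there were 10 (3082 of 20624 genes) and 1 (415 of 20218). DESeq2 called 2 and 0 members (481 and 1 of all genes). In H838 PCK2 was 2.51 higher with the combination than with TMP195 (SE 0.58, adjusted p = 0.0900), and was called with the block (2.26, adjusted p = 0.00163). Replicates 1 to 3 of that TMP195 group were put in another library batch than the same-numbered combination replicates. With the library batch as a term, 0 members were called in that H838 comparison (5 of all genes). The block called 8 members in that comparison in H838 (7.11% of all genes) and 1 in H1755 (1.36%), IDH1 (0.20, adjusted p = 0.0421).

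Departure from additivity on the log2 scale, taken as the combination less each agent alone with vehicle added back, was called for PCK2 in H1703, where 0.144% of all genes were called, and for 0 members in the other lines, where 0% were. There each agent alone and both together brought PCK2 to nearly one level, group means of 86.6 ± 5.26, 96.1 ± 2.43 and 96.8 ± 4.42 CPM (SD, n = 4). The contrast was -0.98 (SE 0.10, adjusted p = 8.23e-05) and held without any 1 library. In H460, H838 and H1755 the same contrast was -0.48 (SE 0.52), 0.37 (SE 0.78) and -0.18 (SE 0.28). At an unadjusted p below 0.05 H460 had 1 member (634 of 21226 genes), H838 had 4 (1260 of 20624) and H1755 had 0 (184 of 20218). DESeq2 called no member in these lines.

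Whether the response differed between lines was asked with an interaction term for line by treatment over 32 libraries per treatment. For MYCi975 0 members were called (0.004% of all genes), with 2 at an unadjusted p below 0.05 (1180 of 24980 genes). DESeq2 called 0 members. For TMP195 2 were called (1.02%), PCK2 (adjusted p = 0.0155) and OGDH (adjusted p = 0.0443). For the combination 6 were called (8.94%), OGDH (adjusted p = 0.00132), PCK2 (0.00228), MPC1 (0.0231), PDK1 (0.0239), MPC2 (0.0317) and GLUD1 (0.0471). PCK2 differed in size, from 1.06 in H1755 to 2.80 in H460. The OGDH values ran from -0.33 in H838 to 0.19 in H1755, neither of them called in the fit of its line. The interaction test does not ask whether the sign changed. When 1 library was left out, both PCK2 calls and the OGDH call for the combination held, while the OGDH call for TMP195 was lost in 24 of 32 leave-outs (adjusted p up to 0.129). The MPC1 call was lost without H1703 combination replicate 1 or 4 or vehicle replicate 1 or 3 (up to 0.0827), and the MPC2 call without H460 vehicle replicate 1, H1703 combination replicate 2 or 4 or H1703 vehicle replicate 2 or 3 (up to 0.0945). The calls of PDK1 and GLUD1 were lost in 9 and 10 of 32, with adjusted p up to 0.0598 and 0.112.

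A further 32 genes around the same steps were counted beside the members. With the combination, H460 had 3 rises and 4 falls among 30 tested (all genes 9.72% higher and 5.98% lower). Of the 31 tested elsewhere, H838 had 1 rise (all genes 3.24% called), H1703 had 8 rises and 10 falls (19.9% and 18.5%), and H1755 had 1 rise and 1 fall (1.69% called). With MYCi975, 1 rose in H460 (1.01% of all genes), and 3 rose and 2 fell in H1703 (10.2% called). With TMP195, 2 rose and 3 fell in H1703 (6.07% and 3.57%). GPT2, mitochondrial alanine aminotransferase, rose with the combination in H460 (1.92, SE 0.28, adjusted p = 0.000486), H838 (1.47, SE 0.27, adjusted p = 0.00740) and H1703 (0.41, SE 0.09, adjusted p = 0.00165). In H460 it went from 14.9, 16.4, 16.8 and 14.9 CPM to 60.5, 64.9, 49.3 and 64.2 CPM, without overlap. PDP1, a phosphatase that reverses the PDK kinases, rose in H1703 (1.04, adjusted p = 0.000755), H460 (0.99, adjusted p = 0.0308) and H1755 (0.70, adjusted p = 0.0237).

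GOT1 rose with the combination in H460 (log2 fold change 0.78, adjusted p = 0.00705) and H1703 (1.36, adjusted p = 1.02e-06), where it went from 39.9, 34.7, 37.6 and 40.5 CPM to 86.5, 104, 103 and 102 CPM. SLC25A1, the mitochondrial citrate carrier, fell in H460 (-0.36, adjusted p = 0.0246) and H1703 (-0.55, adjusted p = 0.000110). SLC25A12, an aspartate-glutamate carrier, fell in the same lines (-0.34, adjusted p = 0.0258, and -0.54, adjusted p = 0.000459). PCK1, the cytosolic counterpart of PCK2, was at or below 0.149 CPM in every library.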

How the data were processed

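RNA was extracted on silica columns and sequenced from 64 libraries with a stranded total RNA kit, per the labels' protocols. The authors deposited raw counts per gene for 60649 genes; Trimmomatic, STAR, featureCounts and GRCh38 are named in the submitters' processing notes, while versions, annotation and strand setting are not given in the sources used here. Groups followed the sample titles.

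Counts were tested with edgeR 4.0.16 (R 4.3.3; TMM, filterByExpr by group, quasi-likelihood test), with 1 fit per line holding its 4 groups and Benjamini-Hochberg adjustment over all genes tested. Line differences used 1 fit over all vehicle libraries or over vehicle and 1 treatment. SE is the size of the log2 fold change over the root of F. The fits were tested on simulated data. The 32 members, the other pathway genes and the lists were chosen with earlier results of these data known. Described with values by sample were members called in 2 or more lines, up to 3 largest rises and falls per line and treatment, the PDK and malic enzyme families, PC and PCK2; other values were chosen after they were seen. Gene positions are from GENCODE 29 and promoters from RefSeq.

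Same-numbered replicates were taken as paired where every correlation of their deviations exceeded 0.1. The lowest was 0.903 (MYCi975) and 0.917 (TMP195) in H460, 0.139 and 0.159 in H1703, 0.126 (TMP195) and 0.158 (combination) in H838, and 0.409, 0.415 and 0.407 (combination) in H1755, all against vehicle. For the combination against MYCi975 and TMP195 it was 0.437 and 0.451 in H1755, and against TMP195 0.105 in H838. The pairing comes from the data, since no label states it. The alternatives tried were RLE size factors, DESeq2 1.42.0, testing without a filter, the replicate block, a library batch term, leaving out abundant RNAs, leaving out each library and, added after seeing the data, the first batch alone.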

Additional observations from a re-analysis of the deposited data

Results flagged for a closer look

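Of 256 groups of 4 libraries over 16 named members, 21 had 1 library far from the other 3 by Dixon's criterion, which chance does in about 1 group in 20. In 20 of the 21 that library was replicate 4, which had a lower share of mitochondrial ribosomal RNA than most first-batch libraries; the part of that difference was not tested. PCK2 stood high in replicate 4 of TMP195 in H460 (55.6 CPM), of MYCi975 (129 CPM) and the combination (144 CPM) in H838, and of MYCi975 in H1755 (37.3 CPM). IDH1 stood high in replicate 4 of MYCi975 in H838 (323 CPM), H1703 (93.4 CPM) and H1755 (165 CPM). PDK1 stood high in replicate 4 of vehicle (15.3 CPM), TMP195 (24.0 CPM) and the combination (26.2 CPM) in H1703 and of TMP195 in H1755 (44.9 CPM).

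Other high replicate 4 libraries were PDK4 with the combination in H838 (3.93 CPM), MPC1 with MYCi975 in H1703 (6.22 CPM), PC with vehicle in H838 (112 CPM), ME1 and ME2 with MYCi975 in H460 (397 and 246 CPM) and ME2 with vehicle in H838 (207 CPM). Replicate 4 was lowest for PDK2 with TMP195 in H1703 (5.99 CPM), PC with MYCi975 in H1755 (34.9 CPM) and ME1 with MYCi975 in H1703 (1.96 CPM). The exception was MPC2 with TMP195 in H1703, where replicate 3 was highest (17.0 CPM).

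The response differed between lines in edgeR's interaction test for TMP195 in OGDH (adjusted p = 0.0443) and PCK2 (adjusted p = 0.0155). For the combination it differed in OGDH (adjusted p = 0.00132), PCK2 (0.00228), MPC1 (0.0231), PDK1 (0.0239), MPC2 (0.0317) and GLUD1 (0.0471).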

How the results depend on the processing

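No called fold change of a member reversed under any alternative. Of 40 calls of single members, all 40 kept their side of the threshold under DESeq2, RLE size factors, the replicate block and without abundant RNAs, 39 with a batch term and 32 with no filter. In the first batch alone 31 kept it and 8 lost it, of the 39 that could be fitted. Counts of members called are given in the order H460, H838, H1703, H1755 where they moved by over 1.5 times. Brackets give how many of all genes were called, where the main fits tested 21226, 20624, 20827 and 20218 genes. DESeq2 called 3 (H460, all genes 664) and 6 (H1703, 2791) with MYCi975. With TMP195 it called 1 (H460, all genes 511), 8 (H1703, 2671) and 1 (H1755, 191). With the combination it called 3 (H838, all genes 1240) and 3 (H1755, 704). It called 5 gene-line pairs for the combination against MYCi975, all in H1703 (all genes 1324). Against TMP195 it called 8, with 5 in H460 (all genes 1479), 2 in H838 (481) and 1 in H1703 (2061). The replicate block called 5 (6.52% of all genes), 1 (0.703%), 10 (25.6%) and 8 (9.23%) with MYCi975. With TMP195 it called 5 (5.15%), 2 (7.46%), 10 (23.8%) and 9 (10.5%). With the combination it called 17 (H460, 31.3%), 10 (H838, 14.9%) and 15 (H1755, 24.2%). It called 21 and 33 pairs against MYCi975 and TMP195. By line the pairs were 5 (9.89% of all genes), 0 (0.335%), 14 (21.3%) and 2 (3.19%) against MYCi975. Against TMP195 they were 12 (16.8%), 8 (7.11%), 12 (24.0%) and 1 (1.36%). Numbers did not pair the libraries for MYCi975 in H838, the combination against vehicle in H460 and H1703, against MYCi975 in H460, H838 and H1703, and against TMP195 in H460 and H1703; there libraries share only a number. A batch term called 4 (all genes 1592), 1 (73), 9 (5097) and 3 (488) with MYCi975. With TMP195 it called 5 (all genes 1163), 0 (66), 9 (4736) and 4 (867). With the combination it called 16 (H460, all genes 6685), 10 (H838, 3651) and 11 (H1755, 3030). The 12 pairs against MYCi975 were 4 (all genes 2301), 0 (76), 8 (3001) and 0 (199). The 20 pairs against TMP195 were 10 (all genes 3636), 0 (5), 10 (3845) and 0 (4). It called 1 TMP195 interaction. With no filter the counts were 1 (H838, all genes 35) and 4 (H1703, 1931) with MYCi975. They were 3 (H1703, all genes 1750) with TMP195 and 2 (H1755, 199) with the combination. There were 3 pairs against MYCi975, all in H1703 (all genes 850), and 1 TMP195 and 2 combination interactions. The first batch alone gave 5 (H1703, all genes 2383) with MYCi975. With TMP195 it gave 9 (H1703, all genes 3664) and 2 (H1755, 353). With the combination it gave 4 (H838, all genes 1698) and 5 (H1755, 1356). Against MYCi975 it gave 0 (H838, all genes 89), 10 (H1703, 3568) and 1 (H1755, 168). Against TMP195 it gave 4 (H1703, all genes 2337) and 0 (H1755, 4). TMP195 in H838 could not be fitted there. H460 had 1 library in each group but the combination, so its counts are left out. The causes were not tested.

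Leaving out 1 library, the counts ranged with MYCi975 from 0 to 2 in H460, 0 to 0 in H838, 2 to 5 in H1703 and 0 to 0 in H1755. With TMP195 they ranged from 0 to 1, 0 to 1, 2 to 9 and 0 to 1, and with the combination from 4 to 7, 0 to 4, 13 to 18 and 1 to 2. Pairs ranged from 0 to 13 against MYCi975, 1 to 6 against TMP195 and 1 to 1 for additivity. Interactions ranged from 0 to 0, 1 to 2 and 3 to 7, and vehicle contrasts from 24 to 26, 20 to 24, 23 to 26 and 19 to 24. Low depth limits PDK4 in H838 and H1703.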
